A study of Oryza sativa with 6 samples.

Results

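The genes described here encode the calcium sensors, calcium-regulated kinases and calcium pumps of the rice grain. They were taken from the deposited expression table as the features whose description names calmodulin, a calcineurin B-like protein, a CBL-interacting kinase, a calcium-dependent protein kinase, a calcium-binding protein or a calcium-transporting ATPase. This gave 84 genes of 91080 features in the table. RNA came from developing rice (Oryza sativa) seeds labelled 15 DAF, at the filling stage, from plants grown in a paddy field. The 6 libraries were 3 of the near-isogenic line NIL-gaf1, whose genotype is labelled mutant and whose titles read F1287gif2, and 3 of NIL-GAF1, whose genotype is labelled wild type and whose titles read F1288GIF2. Near-isogenic lines are bred to be alike except around a chosen locus, and no other treatment is labelled. How many plants or seeds made up a library, and whether replicates were separate plants, is not in the labels, so the p-values reflect only a between-library spread that may be technical.

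Calcium entering the cytosol acts as a signal because proteins with EF-hand loops bind it and change shape. Calmodulin and calmodulin-like proteins (CML) then bind other proteins, among them kinases and channels. Calcineurin B-like proteins (CBL) work through a dedicated family of kinases, the CBL-interacting protein kinases (CIPK), and calcium-dependent protein kinases (CDPK) carry sensor and kinase in 1 chain. Calcium ATPases end the signal by pumping calcium out of the cytosol. In rice grains the seed-specific CDPK named SPK is known for phosphorylating sucrose synthase, the enzyme that breaks down incoming sucrose.

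By description, 28 of the 84 were calmodulin-like, 28 were CIPK, 9 were CBL, 5 were calmodulin, 5 were kinases regulated by calmodulin, 4 were calcium ATPases and 3 were CDPK. The calcium and calmodulin dependent kinase CCaMK and the calcium-binding protein KIC made up the rest. The table described 3 CDPK genes, while the rice family is known to be larger, and CDPK genes without a description in it were not analysed here. For 11 of the 84 the description was projected from Arabidopsis thaliana, and these are KIC, the genes written with "-like" and the kinases named CRCK and CRLK.

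Levels are given as normalized CPM, which are counts scaled to a common library size after TMM normalization, a method that sets the typical gene equal between libraries. A positive log2 fold change means a higher level in NIL-gaf1. A gene was called at an edgeR adjusted p under 0.05, and it was tested if enough libraries held counts for it. Total counts were 21200210 to 25402680 in NIL-gaf1 and 17236796 to 22454000 in NIL-GAF1 libraries. The detection floor, set at 3 counts per library and covering counting error only, was 0.0753 to 0.102 normalized CPM in NIL-gaf1 and 0.205 to 0.244 in NIL-GAF1. The libraries differed in make-up before any calcium gene was considered. Storage protein and seed allergen features took 0.414%, 7.18% and 21.5% of counts in NIL-gaf1 libraries 1, 2 and 3, against 37.0%, 43.5% and 39.4% in NIL-GAF1 libraries 1, 2 and 3. TMM factors were 1.884, 1.571 and 1.157 in NIL-gaf1 and 0.715, 0.627 and 0.652 in NIL-GAF1, in the same order. Over all tested features the median log2 fold change was 0.06 with TMM and 1.27 with plain total-count scaling, so each direction below is relative to the typical gene and is checked against total-count scaling.

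Most calcium genes were transcribed in these seeds, and under TMM the balance of higher and lower calls varied among subfamilies. Of the 84 genes, 66 passed the filter on low counts. Among these 13 rose and 16 fell in NIL-gaf1, and 37 did not pass the test. That is 19.7% higher and 24.2% lower (43.9% in either direction), beside 15.8% higher and 15.4% lower (31.2% in either direction) of all 22937 tested features. Among the 3320 tested features with any description the shares were 19.5% and 14.5%. At least 2-fold changes were called for 7 higher and 8 lower, beside 9.74% and 9.09% of all tested features, with 5 lower without NIL-gaf1 library 2 and 4 lower without NIL-GAF1 library 3. The median log2 fold change of the 66 was 0.04, next to 0.06 for all tested features. For 44 of the 66 (66.7%) the libraries of the lines did not overlap, 21 being higher and 23 lower, beside 49.0% of all tested features (25.3% higher and 23.8% lower). The 66 passed a filter that depends on their counts, so these shares do not describe all 84.

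The direction of many calls rested on the scaling. With total-count scaling 45 calcium genes were called higher and 4 lower, beside 71.9% and 3.76% of all tested features. With storage protein and seed allergen features left out of the totals the counts were 31 higher and 5 lower, beside 43.9% and 6.96%. All 13 rises were also called higher with total-count scaling. That scaling moves most values upward (median 1.27 for all tested features), so it can hardly count against a rise and mainly tests falls. Of the 16 falls, 4 were also called lower with it (CML27, the CML1-like gene, CPK11 and SPK), CIPK1 was at a log2 fold change of -0.05, and 11 had a positive value. Calmodulin genes leaned up and CDPK genes down under TMM, with 3 of 5 calmodulin genes higher and none lower, and 2 of 3 CDPK genes lower and none higher. Of all tested features 15.8% were higher and 15.4% lower under TMM. Without NIL-GAF1 library 2 or 3 the calmodulin calls were 2 higher. The CDPK calls were 1 lower without NIL-gaf1 library 2 or NIL-GAF1 library 1, 2 or 3. With total-count scaling all 5 calmodulin genes were called higher, and of the CDPK genes CPK2 was called higher and the other two lower. The calmodulin-like genes leaned down under TMM (2 higher and 7 lower of 17 tested, median log2 fold change -0.55) and up with total-count scaling (9 higher and 2 lower, median 0.71). CIPK genes were split, with 6 higher and 6 lower of 23 tested and a median of 0.06, and with total-count scaling 15 were higher and none lower (median 1.26). Without NIL-gaf1 library 2 the CIPK calls were 4 higher and 3 lower, and without NIL-GAF1 library 3 they were 3 and 3, of 24 tested. Of 7 tested CBL genes 1 was called lower (14.3%, near the 15.4% of all tested features) and none higher. Their median was -0.14 (1.08 with total-count scaling, and 5 higher).

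**Figure D1:**
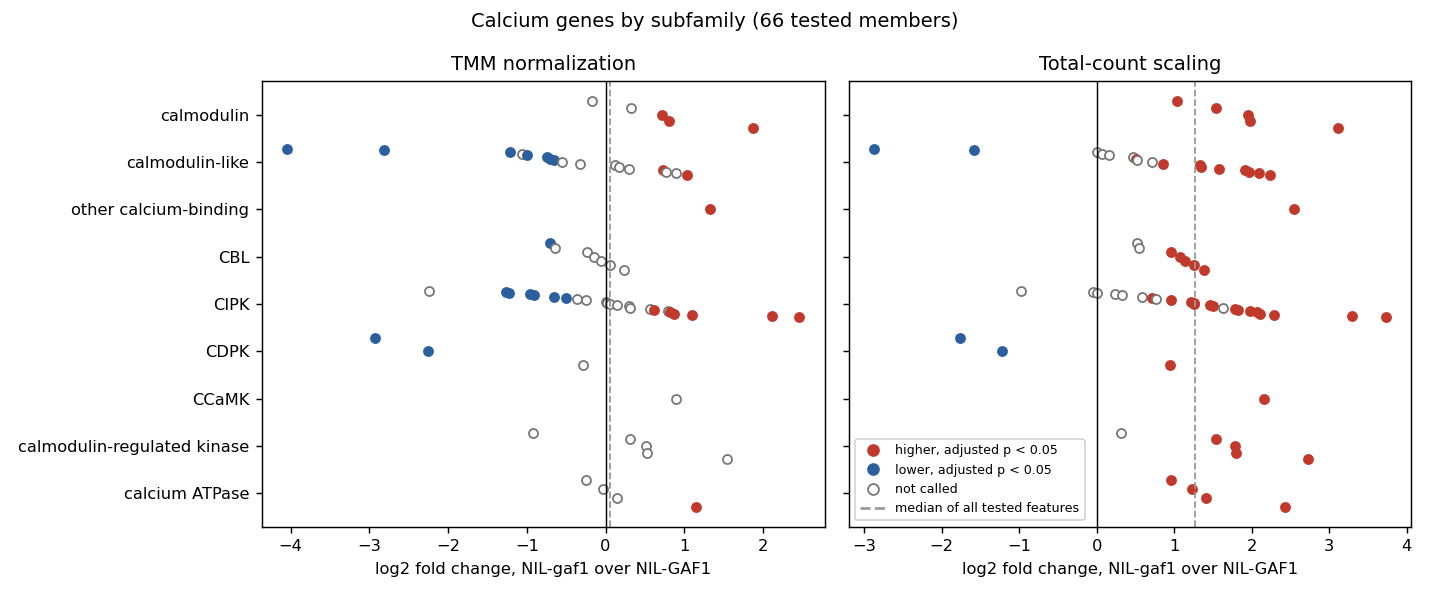
Each point is 1 of the 66 tested calcium genes, placed by its log2 fold change (NIL-gaf1 over NIL-GAF1, x axis) and subfamily (rows), with TMM normalization on the left and total-count scaling on the right. Filled points have an adjusted p under 0.05, and the dashed line is the median of all tested features (0.06 and 1.27). Most points lie further right in the second panel, and 4 filled points stay left of 0.

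Summed over their members, sensors overlapped between the lines while the sums of their subfamilies did not all overlap. The 43 sensor genes (calmodulin, calmodulin-like, CBL and KIC) summed to 889, 844 and 949 normalized CPM in NIL-gaf1 libraries 1, 2 and 3 and to 874, 903 and 859 in NIL-GAF1 libraries 1, 2 and 3. As shares of all counts these sums were 0.11% to 0.167% in NIL-gaf1 and 0.0559% to 0.0624% in NIL-GAF1, with no overlap. Within this sum the calmodulin genes held 562, 486 and 562 in NIL-gaf1, against 379, 414 and 331 in NIL-GAF1. The calmodulin-like genes held 190, 213 and 229 in NIL-gaf1, against 345, 303 and 378 in NIL-GAF1. Neither of these sums overlapped between the lines. As a share of all counts the calmodulin-like genes were at 0.0265% to 0.0358% in NIL-gaf1 and 0.019% to 0.0246% in NIL-GAF1, so here too the direction turned with the scaling.

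**Figure D2:**
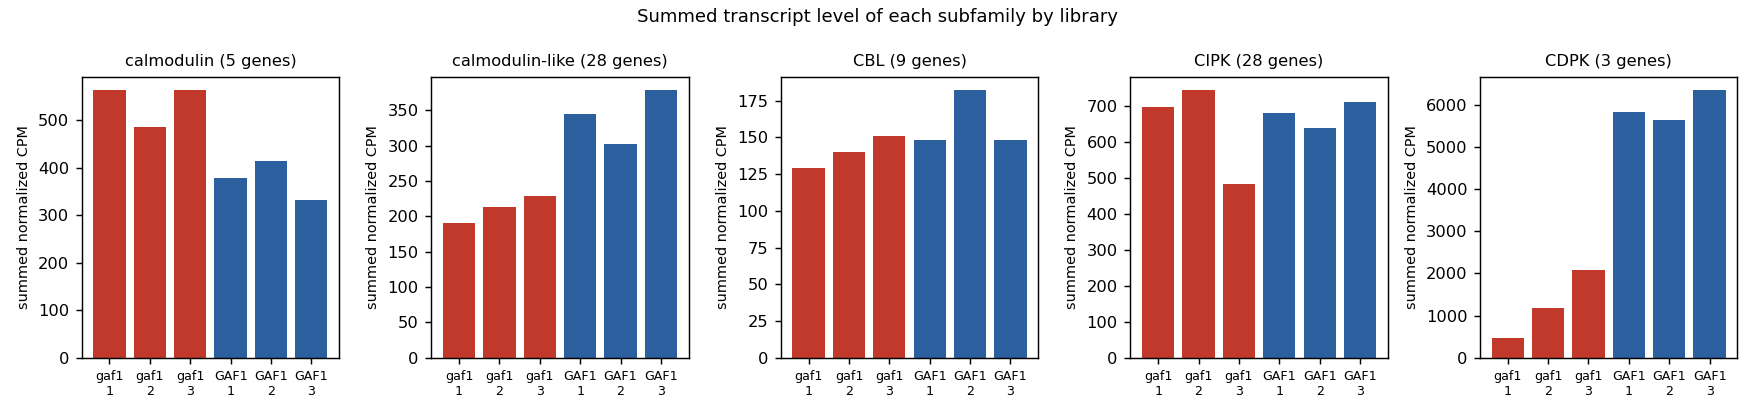
Bars give the summed normalized CPM of all members of a subfamily in each library, NIL-gaf1 libraries in red on the left and NIL-GAF1 libraries in blue on the right, with 1 panel per subfamily and its own y axis from 0. Calmodulin sums are higher and calmodulin-like and CDPK sums lower in all 3 NIL-gaf1 libraries, while CBL and CIPK sums overlap.

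The 3 genes that encode the same calmodulin protein, CaM1, all rose. They share 1 protein entry in the table and are told apart here by chromosome. CAM1-chr3 (OS03G0319300, chromosome 3, 11522676 to 11524356) had 113, 84.1 and 87.4 normalized CPM in NIL-gaf1 libraries 1, 2 and 3, against 27.8, 26.9 and 23.1 in NIL-GAF1 libraries 1, 2 and 3. The lowest NIL-gaf1 library was well above the highest NIL-GAF1 library. The rise was 3.65-fold (log2 fold change 1.87, SE 0.17, edgeR adjusted p = 0.00038). Positions are those of the deposited table, whose genome build is not given in the sources used here. CAM1-chr7 (OS07G0687200, chromosome 7, 29197781 to 29200317) had 79.9 ± 14.7 in NIL-gaf1 and 45.7 ± 3.03 in NIL-GAF1 (SD, n = 3 each), 1.75-fold higher (SE 0.17 on the log2 scale, edgeR adjusted p = 0.0088). CAM1-chr1 (OS01G0267900, chromosome 1, 9195546 to 9198962) had 18.0 ± 3.15 in NIL-gaf1 and 10.9 ± 1.23 in NIL-GAF1, 1.65-fold higher (SE 0.18, edgeR adjusted p = 0.018). CAM1-chr1 did not pass without NIL-GAF1 library 2 (edgeR adjusted p = 0.053) or 3 (0.068). Reads that fit more than 1 of these genes could have been split between them by the counting, which was not measured.

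The calmodulin genes CAM2 and CAM3 did not pass the test. CAM2 was at 298, 261 and 301 normalized CPM in NIL-gaf1 libraries 1, 2 and 3, against 228, 260 and 194 in NIL-GAF1 libraries 1, 2 and 3 (log2 fold change 0.33, SE 0.19, edgeR adjusted p = 0.22). CAM3 was at 57.4 ± 2.72 in NIL-gaf1 and 64.8 ± 3.72 in NIL-GAF1 (log2 fold change -0.17, SE 0.13, edgeR adjusted p = 0.33), and at 1.03 with total-count scaling. Set per kilobase of transcript, the order of the genes differed between the lines. In NIL-gaf1 CAM2 led with 168, followed by CAM1-chr3 with 111, CAM3 with 83.7, CAM1-chr7 with 28.2 and CAM1-chr1 with 22.8 normalized CPM per kb. In NIL-GAF1 CAM2 led with 133, followed by CAM3 with 94.5, CAM1-chr3 with 30.5, CAM1-chr7 with 16.1 and CAM1-chr1 with 13.8. The length behind CAM1-chr7 exceeds its locus (2834 against 2537 bases), so its level per length is a low estimate.

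**Figure D3:**
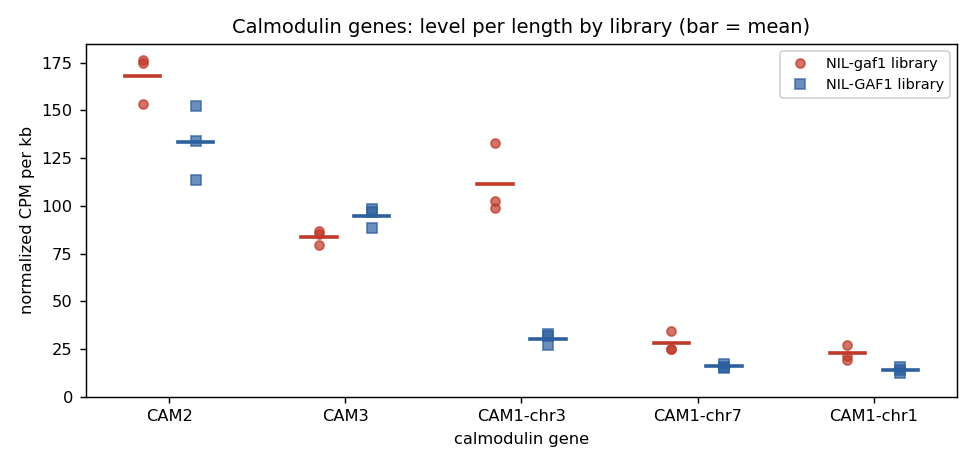
Points give the level per length (normalized CPM per kb, y axis) of each calmodulin gene in each library, NIL-gaf1 as red circles on the left of each pair and NIL-GAF1 as blue squares on the right, with a bar at the mean. CAM1-chr3 lies above CAM3 in NIL-gaf1 and far below it in NIL-GAF1.

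Calmodulin-like genes held the largest fall of all 66 tested calcium genes. CML27 (OS03G0331700, chromosome 3, 12223921 to 12226096) had 4.32, 3.44 and 5.66 normalized CPM in NIL-gaf1 libraries 1, 2 and 3, against 70.2, 59.9 and 90.1 in NIL-GAF1 libraries 1, 2 and 3. It was 16.5-fold lower (log2 fold change -4.04, SE 0.25, edgeR adjusted p = 0.00013) and stayed lower with total-count scaling (-2.87). The CML1-like gene (OS09G0458700, chromosome 9, 17327587 to 17328450) had 1.03, 1.30 and 0.818 in NIL-gaf1, against 5.68, 7.86 and 8.76 in NIL-GAF1. It was 7.04-fold lower (log2 fold change -2.81, SE 0.28, edgeR adjusted p = 0.00054), and -1.58 with total-count scaling. Both genes kept their call in each of the 6 fits that left out 1 library.

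Smaller falls were called for another 5 calmodulin-like genes, and the direction of each turned with total-count scaling (log2 fold changes of 0.01 to 0.52). The CML48-like gene, the most abundant calmodulin-like gene per length, was at 46.2 ± 4.02 normalized CPM in NIL-gaf1 and 77.4 ± 4.53 in NIL-GAF1 (SD, n = 3 each), 1.67-fold lower (SE 0.13 on the log2 scale, edgeR adjusted p = 0.0054). CML15 was at 13.8 ± 3.04 in NIL-gaf1 and 27.6 ± 3.10 in NIL-GAF1 (SE 0.19 on the log2 scale, edgeR adjusted p = 0.0059). CML1, whose product carries a calmodulin domain with an extension known to be prenylated in rice, was at 6.91 ± 0.474 in NIL-gaf1 and 11.2 ± 0.689 in NIL-GAF1 (log2 fold change -0.70, edgeR adjusted p = 0.012). CML10 fell by 1.21 and CML8 by 0.66 on the log2 scale (edgeR adjusted p = 0.020 and 0.021). CML10 and CML8 did not pass without NIL-gaf1 library 2 (edgeR adjusted p = 0.070 and 0.064), NIL-GAF1 library 1 (0.067 and 0.077) or NIL-GAF1 library 3 (0.068 and 0.064).

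Among the calmodulin-like genes 2 rose. CML30 was at 9.61, 9.40 and 10.6 normalized CPM in NIL-gaf1 libraries 1, 2 and 3, against 4.79, 4.94 and 4.72 in NIL-GAF1 libraries 1, 2 and 3. Its libraries lay close together within each line, and the rise was 2.05-fold (SE 0.16 on the log2 scale, edgeR adjusted p = 0.0031). CML4 was at 32.7 ± 3.02 in NIL-gaf1 and 19.8 ± 2.94 in NIL-GAF1, 1.65-fold higher (edgeR adjusted p = 0.010). The 8 tested genes that did not pass (CML9, CML14, CML24, CML16, CML7, CML29, CML5 and CML12) had log2 fold changes from -1.06 for CML14 to 0.90 for CML24. CML14 was called lower without NIL-gaf1 library 3 (log2 fold change -1.42, edgeR adjusted p = 0.029). CML7 was the most abundant of these, at 41.4 ± 8.28 in NIL-gaf1 and 36.8 ± 4.93 in NIL-GAF1. KIC, a small calcium-binding protein known in Arabidopsis to bind a kinesin, was at 7.43, 5.56 and 6.88 in NIL-gaf1, against 2.11, 3.48 and 2.33 in NIL-GAF1. The groups did not overlap, and KIC rose 2.51-fold (edgeR adjusted p = 0.0069, log2 fold change 1.33, SE 0.26).

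Among CBL genes 1 of 7 tested passed. CBL1, which in rice pairs with CIPK23 to activate a potassium channel of the root, was the most abundant CBL gene per length, at 66.1 ± 8.08 normalized CPM in NIL-gaf1 and 77.5 ± 17.0 in NIL-GAF1 (log2 fold change -0.23, SE 0.19, edgeR adjusted p = 0.39). CBL10 was at 6.83, 6.97 and 6.71 in NIL-gaf1 libraries 1, 2 and 3, against 9.66, 11.9 and 11.8 in NIL-GAF1 libraries 1, 2 and 3. It was the one CBL gene called, 1.63-fold lower (log2 fold change -0.70, SE 0.16, edgeR adjusted p = 0.014), turned to 0.52 under total-count scaling, and had an adjusted p of 0.059 without NIL-gaf1 library 2. CBL5 did not pass at 3.12 ± 0.423 in NIL-gaf1 and 4.88 ± 0.583 in NIL-GAF1 (edgeR adjusted p = 0.059). For CBL3, CBL4, CBL6 and CBL2 the log2 fold changes lay between -0.14 and 0.24 and the libraries of the lines overlapped. CBL4 is the rice counterpart of the salt tolerance protein SOS3, and CBL2 and CBL3 belong to the CBL proteins that in Arabidopsis act at the vacuole membrane.

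CIPK kinases changed in both directions, and the largest called changes were the rises of CIPK25 and CIPK12. CIPK25 (OS06G0543400, chromosome 6, 20490388 to 20492271) had 14.5, 11.1 and 7.73 normalized CPM in NIL-gaf1 libraries 1, 2 and 3, against 1.95, 1.70 and 2.39 in NIL-GAF1 libraries 1, 2 and 3. The rise was 5.49-fold (edgeR adjusted p = 0.00097, log2 fold change 2.46, SE 0.29). CIPK12 (OS01G0759400, chromosome 1, 31943529 to 31948580), linked to drought tolerance in rice, was at 13.3, 12.0 and 15.0 in NIL-gaf1, against 4.14, 2.51 and 2.67 in NIL-GAF1. Its libraries were closer together in NIL-gaf1 than those of CIPK25, and its rise was 4.32-fold (edgeR adjusted p = 0.00075, log2 fold change 2.11, SE 0.23). CIPK23, the partner of CBL1, was at 66.5, 63.1 and 48.3 in NIL-gaf1, against 32.7, 32.7 and 35.2 in NIL-GAF1, 1.77-fold higher (SE 0.15 on the log2 scale, edgeR adjusted p = 0.0063). These 3 kinases kept their call in each fit that left out 1 library.

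CIPK14 and CIPK15 lie at like positions near the start of chromosomes 12 and 11 and are known as a near-identical pair, so reads may be split between them and their single values are uncertain. CIPK15 is known in rice for linking low oxygen to sugar starvation signals in germinating seeds. CIPK15 was at 23.4, 23.7 and 31.4 normalized CPM in NIL-gaf1 libraries 1, 2 and 3, against 7.79, 16.3 and 12.6 in NIL-GAF1 libraries 1, 2 and 3 (2.14-fold higher, edgeR adjusted p = 0.016). CIPK14 was at 44.0, 34.2 and 40.6 in NIL-gaf1, against 15.2, 30.3 and 19.5 in NIL-GAF1 (1.83-fold higher, edgeR adjusted p = 0.030). Both were higher in every NIL-gaf1 library than in any NIL-GAF1 library, CIPK14 by a narrow margin. CIPK15 did not pass without NIL-GAF1 library 3 (edgeR adjusted p = 0.054), nor did CIPK14 without NIL-gaf1 library 2 (0.056) or NIL-GAF1 library 1 (0.093) or 3 (0.10). CIPK11 was 1.52-fold higher (edgeR adjusted p = 0.043), a call that held only without NIL-gaf1 library 1, since leaving out any other library gave an adjusted p of 0.063 to 0.15.

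The falls among CIPK genes were led by an abundant kinase. CIPK1 (OS01G0292200, chromosome 1, 10622951 to 10627532), the highest CIPK gene per length in NIL-GAF1 and over all libraries, though below CIPK2 in NIL-gaf1 (33.9 and 42.5 normalized CPM per kb, that of CIPK2 a low estimate), was at 78.1, 76.7 and 73.0 normalized CPM in NIL-gaf1 libraries 1, 2 and 3, against 195, 158 and 194 in NIL-GAF1 libraries 1, 2 and 3. It was 2.40-fold lower (log2 fold change -1.27, SE 0.16, edgeR adjusted p = 0.0013) and did not differ by the test with total-count scaling (-0.05, adjusted p = 0.85). CIPK17 was 1.94-fold and CIPK29 1.88-fold lower (edgeR adjusted p = 0.0026 and 0.0067), with 0.23 and 0.33 on the log2 scale under total-count scaling. CIPK10, CIPK24 and the CIPK21-like gene were 1.57-fold, 1.42-fold and 2.34-fold lower (edgeR adjusted p = 0.019, 0.032 and 0.036), with 0.58, 0.72 and 0.01 under total-count scaling. CIPK24 is the rice counterpart of the salt tolerance kinase SOS2. CIPK10 and CIPK24 did not pass without NIL-gaf1 library 2 (edgeR adjusted p = 0.080 and 0.094), NIL-GAF1 library 1 (0.063 and 0.10) or NIL-GAF1 library 3 (0.068 and 0.10). The CIPK21-like call held only without NIL-gaf1 library 1, with adjusted p of 0.063 to 0.14 in the other fits that left out a library.

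A pair of CIPK genes had 1 library far from the rest of its line. CIPK2 was at 241, 298 and 49.6 normalized CPM in NIL-gaf1 libraries 1, 2 and 3, against 194, 162 and 180 in NIL-GAF1 libraries 1, 2 and 3. NIL-gaf1 library 3 lay below all others, and without it the log2 fold change was 0.57 (edgeR adjusted p = 0.053) in place of 0.14 (0.86). CIPK16 was at 2.56, 2.54 and 1.91 in NIL-gaf1, against 2.76, 3.81 and 26.5 in NIL-GAF1. Here NIL-GAF1 library 3 stood alone, and without it the log2 fold change of -2.24 (edgeR adjusted p = 0.060) became -0.49 (0.29), while it was called lower without NIL-GAF1 library 1 (-2.71, adjusted p = 0.037) or 2 (-2.66, 0.049). The other 9 tested CIPK genes did not pass, with log2 fold changes from -0.36 for CIPK3 to 0.80 for CIPK28, and CIPK18 was called higher without NIL-GAF1 library 2 (0.82, edgeR adjusted p = 0.040). The CIPK9-like gene, related to an Arabidopsis kinase of potassium nutrition, was at 44.0 ± 3.99 in NIL-gaf1 and 43.2 ± 3.72 in NIL-GAF1, and CIPK19 at 27.6 ± 5.21 in NIL-gaf1 and 27.5 ± 0.927 in NIL-GAF1.

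The CDPK genes SPK and CPK11 fell, and the make-up of the summed calcium gene level differed between the lines. All 84 genes together took 0.41%, 0.449% and 0.416% of counts in NIL-gaf1 libraries 1, 2 and 3. In NIL-GAF1 libraries 1, 2 and 3 they took 0.535%, 0.455% and 0.522%. SPK (OS10G0539600, chromosome 10, 21027467 to 21032216) had the highest mean level of the calcium genes in both lines, although in NIL-gaf1 library 1 it was close to CAM2 (342 and 298 normalized CPM). It was at 342, 1024 and 1934 normalized CPM in NIL-gaf1 libraries 1, 2 and 3, against 5109, 5170 and 5478 in NIL-GAF1 libraries 1, 2 and 3. Every NIL-gaf1 library was below every NIL-GAF1 library, with NIL-gaf1 library 3 the nearest. SPK was 4.78-fold lower (log2 fold change -2.26, SE 0.63, edgeR adjusted p = 0.029) and -1.22 with total-count scaling (adjusted p = 0.031). The call was lost without NIL-gaf1 library 2 (edgeR adjusted p = 0.12) or NIL-GAF1 library 1, 2 or 3 (0.080, 0.068 and 0.075), and without NIL-gaf1 library 3 the fall was 7.81-fold. SPK held 15.7%, 35.8% and 53.7% of the summed level of all 84 calcium genes in NIL-gaf1 libraries 1, 2 and 3, against 68.3%, 71.1% and 68.3% in NIL-GAF1 libraries 1, 2 and 3. By level per length it ranked 222nd, 71st and 58th of all features in NIL-gaf1 and 39th, 37th and 40th in NIL-GAF1. Without SPK the other 83 genes summed to 1838, 1839 and 1667 normalized CPM in NIL-gaf1, against 2375, 2100 and 2538 in NIL-GAF1. These 83 include CPK11, at 66.4 to 89.3 in NIL-gaf1 and 397 to 789 in NIL-GAF1, so their lower sum is not a fall of the typical calcium gene. As shares of all counts, the sums of every subfamily other than CDPK were higher in NIL-gaf1, with no overlap.

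CPK11 (OS03G0128700, chromosome 3, 1625098 to 1629527) had 66.4, 85.8 and 89.3 normalized CPM in NIL-gaf1 libraries 1, 2 and 3, against 651, 397 and 789 in NIL-GAF1 libraries 1, 2 and 3. The spread lay in NIL-GAF1 here, unlike SPK, whose spread lay in NIL-gaf1. CPK11 was 7.61-fold lower (log2 fold change -2.93, SE 0.31, edgeR adjusted p = 0.00067), -1.76 with total-count scaling, and kept its call whichever library was left out. CPK2 was at 63.1 ± 4.90 in NIL-gaf1 and 77.1 ± 2.11 in NIL-GAF1 and did not pass (log2 fold change -0.29, SE 0.13, edgeR adjusted p = 0.13). The isoform names are those of the table and may differ from other numberings of rice CDPK genes.

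**Figure D4:**
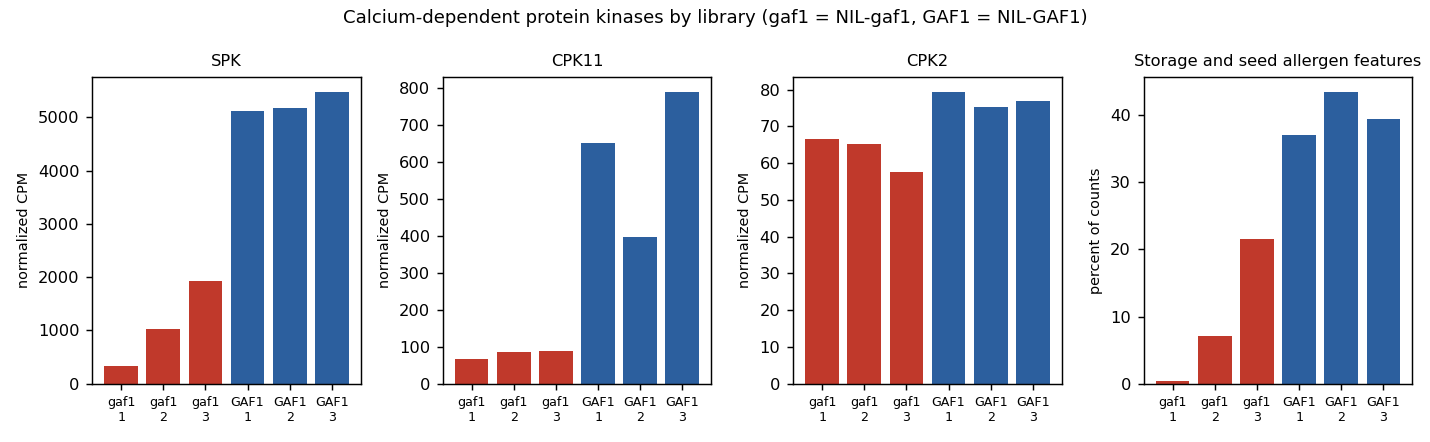
Bars give the normalized CPM of the CDPK genes SPK, CPK11 and CPK2 in each library, and in the last panel the percent of counts from storage protein and seed allergen features, with NIL-gaf1 libraries in red on the left and NIL-GAF1 libraries in blue on the right. Within NIL-gaf1 SPK runs from 342 to 1934 and CPK11 from 66.4 to 89.3, both with the same order of libraries as the storage share. CPK2 has the reverse order there. A link to the storage share was not tested.

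Most markers of the embryo and aleurone were also called lower in NIL-gaf1, while those of the green pericarp were not called. Of 13 tested glutelin and prolamin genes, taken for the starchy endosperm, 1 was called lower and none higher (15.4% and 15.8% of all tested features), with all 13 values negative (median log2 fold change -3.04), and their summed level was 1902 to 173833 normalized CPM in NIL-gaf1 and 459583 to 622408 in NIL-GAF1 libraries. The number called lower was 8 without NIL-gaf1 library 1, 7 without NIL-gaf1 library 3, 4 with total-count scaling and 11 by the DESeq2 Wald test. A PROLM7 prolamin feature (OS05G0329350) had 0 counts in NIL-gaf1 library 1, another (OS05G0329300) had 0 in all 3 NIL-gaf1 libraries and 0, 1 and 1 in NIL-GAF1 libraries 1, 2 and 3, and OS05G0329100 had 0 in all 6 libraries. Of 8 embryo and aleurone markers (oleosins, dehydrins and late embryogenesis proteins) 7 fell (median -2.73), beside 15.4% of all tested features, with sums of 293 to 1453 in NIL-gaf1 and 3105 to 3722 in NIL-GAF1. The number of these 8 called lower was 8 without NIL-gaf1 library 1 or 3, and 4 without NIL-gaf1 library 2 or any of the NIL-GAF1 libraries. None of 4 chlorophyll-binding genes of the green pericarp passed, with sums of 617 to 1169 in NIL-gaf1 and 758 to 984 in NIL-GAF1. All markers of the embryo and of the pericarp had counts in every library. The part of these tissues in the calcium gene results was not tested, and in whole seeds fewer cells of a type and less RNA per cell cannot be told apart.

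**Figure D5:**
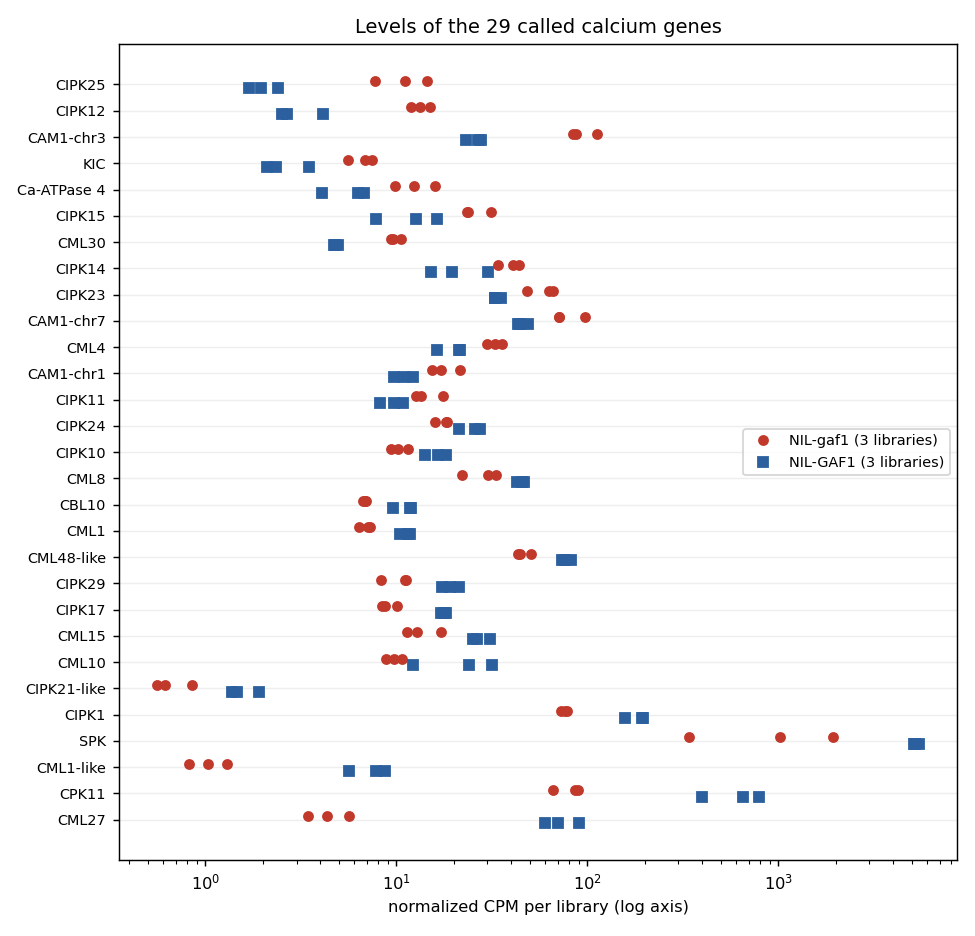
Each row is 1 of the 29 called calcium genes, ordered by log2 fold change, with its normalized CPM in each library on a log axis, NIL-gaf1 as red circles above and NIL-GAF1 as blue squares below. SPK lies furthest to the right, CPK11 lies to the right of the other genes in NIL-GAF1 but among them in NIL-gaf1, and the largest separation between lines is that of CML27 at the bottom.

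None of the kinases regulated by calmodulin was called in the main comparison. CRCK3 led them per length, at 27.1, 27.9 and 23.2 normalized CPM in NIL-gaf1 libraries 1, 2 and 3, against 20.9, 19.6 and 22.5 in NIL-GAF1 libraries 1, 2 and 3 (log2 fold change 0.31, SE 0.13, edgeR adjusted p = 0.11). CRCK2 was at 1.76, 0.927 and 1.64 in NIL-gaf1 libraries 1, 2 and 3, against 0.893, 0.324 and 0.274 in NIL-GAF1 libraries 1, 2 and 3. The groups were barely apart, and the log2 fold change of 1.54 did not pass (SE 0.54, edgeR adjusted p = 0.061), although it did without NIL-GAF1 library 1 (2.25, adjusted p = 0.037). The DESeq2 Wald test also called CRCK2 higher (log2 fold change 1.53, adjusted p = 0.041). CRLK2, CRCK1 and CRLK1 had log2 fold changes of 0.53, 0.51 and -0.92 and adjusted p of 0.14 to 0.35. CRLK1 is known for its part in the cold response of Arabidopsis. CCaMK, which decodes calcium signals in root symbioses, was at 2.22 ± 0.666 in NIL-gaf1 and 1.19 ± 0.326 in NIL-GAF1 (log2 fold change 0.90, edgeR adjusted p = 0.098).

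Among the calcium pumps described as plasma membrane-type 1 of 4 rose. Calcium ATPase 4 (OS12G0136900, chromosome 12, 1783558 to 1789565) had 15.9, 12.3 and 9.78 normalized CPM in NIL-gaf1 libraries 1, 2 and 3, against 4.06, 6.73 and 6.29 in NIL-GAF1 libraries 1, 2 and 3. The lines did not overlap, and it rose 2.22-fold (edgeR adjusted p = 0.013, log2 fold change 1.15, SE 0.26). Calcium ATPase 1, the highest per length, was at 29.7 ± 1.89 in NIL-gaf1 and 35.4 ± 3.18 in NIL-GAF1 (log2 fold change -0.25, edgeR adjusted p = 0.17). Calcium ATPases 2 and 3 had log2 fold changes of -0.03 and 0.15 with overlapping libraries. The 4 pumps together summed to 64.3 ± 10.2 in NIL-gaf1 and 63.3 ± 6.35 in NIL-GAF1.

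The 18 genes that did not pass the filter were 11 calmodulin-like genes, 5 CIPK genes and the genes CBL7 and CBL8. No counts were found for CBL8 and CIPK20 in any library. CML32 had 1, 5 and 0 counts in NIL-gaf1 libraries 1, 2 and 3, against 2, 11 and 16 in NIL-GAF1 libraries 1, 2 and 3. It was the only one of the 18 whose levels did not overlap between the lines. CML32 passed the filter in 4 of the fits that left out 1 library and was called lower without NIL-gaf1 library 2 (log2 fold change -5.19, edgeR adjusted p = 0.033), NIL-gaf1 library 3 (-3.16, 0.037) or NIL-GAF1 library 1 (-4.07, 0.028), but not without NIL-gaf1 library 1 (-3.22, 0.060). CIPK22 had 16, 11 and 9 counts in NIL-gaf1, against 11, 1 and 4 in NIL-GAF1.

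Other genes of calcium signalling, listed by description, also went both ways. Of 15 such genes 12 were tested. In NIL-gaf1 4 of them rose and 3 fell, beside 15.8% and 15.4% of all tested features, while 5 missed the threshold, with a median log2 fold change of 0.35 (0.06 for all tested features). Calreticulin, the calcium-binding chaperone of the endoplasmic reticulum, was at 844, 583 and 427 normalized CPM in NIL-gaf1 libraries 1, 2 and 3, against 173, 168 and 190 in NIL-GAF1 libraries 1, 2 and 3. It was high in all NIL-gaf1 libraries, 3.49-fold above NIL-GAF1 (log2 fold change 1.80, SE 0.29, edgeR adjusted p = 0.0032). The vacuolar calcium exchanger CAX1A was 3.03-fold higher (40.2 ± 6.02 in NIL-gaf1 and 13.3 ± 2.76 in NIL-GAF1, edgeR adjusted p = 0.0010). CAX3 was 1.70-fold lower (10.5 ± 0.579 in NIL-gaf1 and 17.8 ± 1.10 in NIL-GAF1, edgeR adjusted p = 0.0052), and its direction turned with total-count scaling (0.46). The CSC1-like protein At4g35870, of a family of osmosensitive calcium channels, was 2.49-fold lower (27.5 ± 1.69 in NIL-gaf1 and 68.5 ± 14.9 in NIL-GAF1, edgeR adjusted p = 0.0019). With total-count scaling its log2 fold change was -0.12 and it was not called (edgeR adjusted p = 0.66).

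Genes listed by description as possible targets of calcium-regulated kinases differed among themselves at the transcript level. The description of sodium/hydrogen exchanger 4 was projected from Arabidopsis and does not say that such a kinase acts on it. AKT1, the potassium channel activated by CIPK23 in rice roots, was at 10.2, 6.86 and 4.22 normalized CPM in NIL-gaf1 libraries 1, 2 and 3, against 5.68, 3.65 and 8.35 in NIL-GAF1 libraries 1, 2 and 3, with overlapping lines (edgeR adjusted p = 0.63). RBOHB, an NADPH oxidase that makes superoxide, was 1.99-fold higher (23.2 ± 6.93 in NIL-gaf1 and 11.7 ± 3.22 in NIL-GAF1, edgeR adjusted p = 0.029). Sodium/hydrogen exchanger 4 was at 4.49, 15.3 and 32.6 in NIL-gaf1, against 72.3, 67.5 and 68.1 in NIL-GAF1, 3.98-fold lower (edgeR adjusted p = 0.032). With total-count scaling its log2 fold change was -0.98 and it was not called (edgeR adjusted p = 0.053). RBOHB passed only without NIL-gaf1 library 3 when a library was left out, with adjusted p of 0.053 to 0.080 in the other 5 fits. CAX1B, a low vacuolar exchanger gene with 71, 39 and 12 counts in NIL-gaf1 libraries 1, 2 and 3 and 1, 0 and 5 in NIL-GAF1 libraries 1, 2 and 3, was called higher (edgeR adjusted p = 0.047) and passed without NIL-gaf1 library 3 (0.019) or NIL-GAF1 library 3 (0.043) but not in the other fits (0.11 to 0.15). The exchanger of sodium and hydrogen passed without NIL-gaf1 library 1 or 3 and not in the other 4 fits (0.076 to 0.11).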

How the data were processed

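RNA-seq libraries of 6 seed samples were grouped by the line label, 3 per line. Per the submitters' processing notes Bowtie 0.12.2 was used. No source used here names the counting tool, genome build, annotation or strand setting, so values of genes that overlap or lie antisense to another are uncertain. The authors deposited whole-number read counts per feature, without normalization, and FPKM values. Dividing deposited count by FPKM gives a feature length, which agreed between libraries within 0.00991% for the 18936 features whose lowest count was 10 or more and was used for levels per kilobase. It was longer than the locus for 7.31% of these features and for 8 tested calcium genes (CAM1-chr7, CML4, CML7, CIPK2, CIPK14, CIPK15, CIPK16 and CRCK2), whose levels per length are low estimates.

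Counts were tested with edgeR 4.0.16 in R 4.3.3 (filterByExpr, TMM, estimateDisp, glmQLFit, glmQLFTest, line as the only term), with Benjamini-Hochberg adjustment over all 22937 tested features. The SE of a log2 fold change is its size over the square root of F. The script was tested on simulated data. Same-numbered libraries of the lines did not deviate together (correlations 0.0678, -0.043 and -0.0251), so numbers were not taken as pairs. Alternatives were the replicate block, DESeq2 1.42.0 size factors, total-count scaling with and without 21 storage and seed allergen features, no filter, the DESeq2 Wald test and each library left out.

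The members and lists were chosen with earlier results of these data known. The rule for named genes was, in each subfamily, the up to 5 genes with the smallest adjusted p, the gene with the highest level per length, and every called gene with an absolute log2 fold change of at least 2 and non-overlapping lines. Other called genes, CIPK2, CIPK16, CML32 and others outside it were named after their values were seen. Among the 15 other calcium signalling genes, the up to 3 with the smallest adjusted p in each class were named.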

Additional observations from a re-analysis of the deposited data

How the results depend on the processing

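Among all tested features 3619 were called higher and 3529 lower. Total-count scaling gave 16481 and 863, and the same scaling without storage and seed allergen features gave 10108 and 1602. Leaving out 1 library gave 2003 to 4040 higher and 2009 to 4288 lower, with 2003 and 2009 without NIL-gaf1 library 2 and 2216 and 2341 without NIL-GAF1 library 1. Of the calcium genes 13 were called higher and 16 lower. In the same order the scalings gave 45 and 4, then 31 and 5, and leaving out 1 library gave 9 to 13 higher and 10 to 17 lower, with 10 lower without NIL-gaf1 library 2 or NIL-GAF1 library 3. Of the called genes, 9 of 13 rises and 9 of 16 falls kept call and direction in all 6 such fits. For the other genes of calcium signalling, 4 higher and 3 lower in the main comparison, the scalings gave 9 and 0, then 7 and 2, and leaving out 1 library gave 2 to 5 higher and 2 to 3 lower (2 higher without NIL-gaf1 library 1 or 2 or NIL-GAF1 library 1 or 2; 2 lower without NIL-gaf1 library 2 or NIL-GAF1 library 1 or 2). The replicate block, which rests on a shared number alone, gave 12 calcium genes higher and 14 lower (3001 and 3047 of all features), DESeq2 size factors 12 and 16, no filter 14 and 11, and the DESeq2 Wald test 14 and 18.

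With total-count scaling the direction of called falls turned for CML48-like (0.47), CML15 (0.16), CML1 (0.52), CML10 (0.01), CML8 (0.51), CBL10 (0.52), CIPK17 (0.23), CIPK29 (0.33), CIPK10 (0.58), CIPK24 (0.72), CIPK21-like (0.01) and CAX3 (0.46), and for CIPK24 also without storage and seed allergen features (0.11). CML8 and CIPK24 were called higher there (adjusted p = 0.040 and 0.034). That scaling moves the median of all features to 1.27, or 0.67 without those features. Depth limits the 18 calcium genes under the filter, of which CML32 and CIPK22 passed it in fits that left out 1 library, and 82 of the 84 were tested with no filter.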

Other observations

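Some calcium genes lie side by side, with no other feature of the table between them. CAM1-chr3 ends 1917 bases before CIPK31 on chromosome 3, and their log2 fold changes were 1.87 (called higher) and 0.31 (not called). CML9 and CAM2 lie 1604 bases apart on chromosome 5, with 0.77 and 0.33, neither called. CIPK30 and CIPK12 lie 3345 bases apart on chromosome 1, where CIPK30 had 1 count in all libraries together and CIPK12 was called higher. With 2 features between them, CIPK3 and CAM1-chr7 on chromosome 7 had -0.36 (not called) and 0.81 (called higher).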
